A study of Homo sapiens with 9 samples.

Results

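MT2A, MT1X, MT1E, SLC30A1 and MTF1 were chosen by name as genes of the metallothionein and zinc response. All 5 were found among the 15570 genes listed, and all 5 passed the filter on low values, which left 10818 genes. MTF1 passed it narrowly, through the 3 reoxygenated libraries and 1 control library. The libraries came from hCMEC/D3, an established, immortalised human line of brain microvascular endothelial cells, widely used to study the blood-brain barrier in culture. In OGD/R (3 libraries), deprived cells were returned to normal medium under 21% O2 and 5% CO2 for 16 h. In OGD (oxygen-glucose deprivation, 3 libraries), cells were held for 4 h without glucose under 95% N2 and 5% CO2. Control cells (3 libraries) stayed in normal DMEM. Oxygen and glucose were withdrawn and returned together, so their separate parts cannot be told apart. The 16 h after deprivation also brought the return to normal medium and more time in culture. These cannot be told apart from reoxygenation, and no control matched for that time is named among the groups. All libraries came from this single line. Separate cultures within a group are not stated, and the p-values can therefore reflect no more than the spread among these libraries, part of which may be technical.

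Metallothioneins are small, cysteine-rich proteins that bind zinc and copper and buffer the free metal in the cytosol. Their genes are switched on when free zinc rises: the zinc-sensing transcription factor MTF1 moves to the nucleus and binds metal response elements in their promoters. The same factor drives SLC30A1, which encodes ZnT1, the zinc exporter of the plasma membrane. Glucocorticoids, oxidants and hypoxia are further known inducers of metallothioneins, and in brain endothelium the proteins are known as part of the defence against metal and oxidative stress.

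MT2A, MT1X and MT1E lie in 1 cluster on chromosome 16, on the plus strand, at chr16:56608584-56609497, chr16:56682470-56684196 and chr16:56625781-56627112 (RefSeq, GRCh38.p14). SLC30A1 at chr1:211571568-211579161 and MTF1 at chr1:37809574-37859592 lie on the minus strand of chromosome 1. Promoter windows from RefSeq were used for 4 of the 5 genes, and that of MT1E was not analysed here. The 250 bases before the start are printed for the genes with a match to the metal response element core, in the direction of transcription. Capitals mark matches on either strand to TGCACNC or TGCGCNC, and no match overlapped another.
MT2A, chr16:56608334-56608583, plus strand: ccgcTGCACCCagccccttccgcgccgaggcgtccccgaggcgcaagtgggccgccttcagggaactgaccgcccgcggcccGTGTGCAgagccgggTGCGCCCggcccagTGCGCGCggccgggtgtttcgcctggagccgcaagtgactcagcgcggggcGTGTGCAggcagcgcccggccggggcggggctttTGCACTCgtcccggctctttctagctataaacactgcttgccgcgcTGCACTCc
MT1X, chr16:56682220-56682469, plus strand: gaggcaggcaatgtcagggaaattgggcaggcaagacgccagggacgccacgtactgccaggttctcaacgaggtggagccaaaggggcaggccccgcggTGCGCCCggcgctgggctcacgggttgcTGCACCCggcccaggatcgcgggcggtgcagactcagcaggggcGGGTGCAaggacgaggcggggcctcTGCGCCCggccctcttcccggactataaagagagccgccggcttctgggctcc
SLC30A1, chr1:211579162-211579411, minus strand: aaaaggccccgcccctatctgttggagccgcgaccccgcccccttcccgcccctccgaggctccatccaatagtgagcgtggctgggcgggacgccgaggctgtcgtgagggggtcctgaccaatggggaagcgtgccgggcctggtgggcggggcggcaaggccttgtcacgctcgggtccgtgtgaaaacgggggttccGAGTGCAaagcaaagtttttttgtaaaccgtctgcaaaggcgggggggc
MT2A held 7 matches, 5 of TGCACNC and 2 of TGCGCNC. MT1X held 4, with 2 of each, and SLC30A1 held 1 of TGCACNC. MTF1 held 0 in its window. Among the other metallothioneins with a promoter window, MT1H held 8 matches, MT1B held 3 and MT4 held 3. These genes were not among the genes listed, so a count of matches does not stand for a level. Of all 27305 RefSeq promoters of the same length, 24.7% held at least 1 match, 0.366% held at least 4 and 0.033% held at least 7. TGCACNC alone was present in 9.73% and TGCGCNC in 16.9%. A match describes letters in a window and is not a measured site.

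The 3 metallothionein messages are close copies of each other in their coding parts, which bears on how reads can be assigned to them. Their coding sequences (GENCODE annotation on GRCh38) are shown, with capitals marking the cysteine codons TGC and TGT in MT2A, and in MT1X and MT1E the bases that differ from MT2A. Each is 186 bases long, is split over 3 exons and encodes 61 amino acids, of which 20 are cysteines.
MT2A, chr16:56608656-56609354: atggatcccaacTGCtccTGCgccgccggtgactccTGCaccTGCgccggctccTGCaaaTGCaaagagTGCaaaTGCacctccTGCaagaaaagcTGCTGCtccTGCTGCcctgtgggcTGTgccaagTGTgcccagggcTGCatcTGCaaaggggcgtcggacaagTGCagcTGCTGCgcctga
MT1X, chr16:56682541-56684049: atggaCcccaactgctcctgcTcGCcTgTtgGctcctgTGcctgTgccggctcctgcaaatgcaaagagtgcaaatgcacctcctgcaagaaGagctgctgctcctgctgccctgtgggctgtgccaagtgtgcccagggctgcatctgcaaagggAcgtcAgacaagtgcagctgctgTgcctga
MT1E, chr16:56625852-56626971: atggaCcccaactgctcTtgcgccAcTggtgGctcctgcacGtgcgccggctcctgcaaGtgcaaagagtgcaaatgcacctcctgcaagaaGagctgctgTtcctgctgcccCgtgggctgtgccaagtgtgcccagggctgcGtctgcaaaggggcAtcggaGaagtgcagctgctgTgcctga
MT1X and MT1E each differed from MT2A at 14 bases, an identity of 92.5%, and from each other at 17 bases, an identity of 90.9%. Over the whole transcripts, 14.7% of the 50-base windows of MT1X also occurred in another metallothionein transcript, against 2.17% for MT2A and 0.458% for MT1E. The comparison covered transcripts of 12 metallothionein genes and no others. The authors' counting could split such reads, and by this measure MT1X is the least certain of the 3. In the GENCODE annotation, MT1X also overlaps the non-coding gene AC026461.1 on the same strand, and MTF1 overlaps the pseudogene AL929472.4 on the opposite strand. In RefSeq, MTF1 overlaps the pseudogene RPS2P13. Neither AC026461.1 nor AL929472.4 was among the genes listed, and whether strand was used is not given in the sources used here.

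Across the series, the deposited FPKM (fragments scaled to transcript length and library size) summed to between 442696 and 449248 in OGD/R, 585947 and 605818 in OGD, and 454237 and 537878 in control libraries. The read depth is unknown. At an adjusted p under 0.05, 58.0% of the genes tested were called between OGD and control, 70.7% between OGD/R and OGD, and 41.2% between OGD/R and control. Over all genes tested, the median log2 fold change was -0.31 in OGD against control, 0.39 in OGD/R against OGD and 0.07 in OGD/R against control. Of 12 endothelial markers, 11 were listed and 4 reached 1 FPKM in at least 3 libraries. PECAM1 and CDH5, which mark endothelial junctions, reached at most 1.55 and 2.62 FPKM, and VWF, CLDN5 and KDR at most 0.0881, 0.101 and 0.0175 FPKM. EGFL7, which encodes a protein secreted by endothelial cells, was the highest of the list at 4.14 to 14.8 FPKM, and ROBO4, an endothelial guidance receptor, reached 2.56 FPKM. The list was thus present in part, with VWF, CLDN5 and KDR close to absent. Summed endothelial markers ranged over 15.3 to 17.7 FPKM in OGD/R, 6.47 to 9.37 in OGD and 14.2 to 19.3 in control libraries. For fibroblast markers, of which 4 of 6 reached 1 FPKM, the sums were 91.3 to 111 in OGD/R, 33.1 to 34.7 in OGD and 53.5 to 67.6 in control. Pericyte and smooth muscle markers, 4 of 8, summed to 17.1 to 19.5 in OGD/R, 6.14 to 7.74 in OGD and 10.2 to 13.7 in control, and epithelial markers, 2 of 5, to 238 to 257 in OGD/R, 130 to 140.0 in OGD and 166 to 201 in control. Leukocyte and microglia markers, of which 1 of 6 reached 1 FPKM, were lowest in control instead. They summed to 25.8 to 27.2 in OGD/R, 20.7 to 21.8 in OGD and 17.2 to 20.6 in control, with CD68 the highest. Of 7 astrocyte and neuron markers, 0 reached 1 FPKM in at least 3 libraries. The part of these differences in the results on metal-handling genes was not tested.

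MT2A was the most abundant metallothionein in every library. Its level was 977, 950.0 and 889 FPKM in OGD/R libraries, 1412, 1571 and 1626 FPKM in OGD libraries, and 621, 656 and 807 FPKM in control libraries. The 3 groups did not overlap, with OGD highest and control lowest. By mean level, MT2A ranked 68 among the 15570 genes in OGD/R, 73 in OGD and 109 in control. MT1E came next, at 75.3, 67.7 and 69.0 FPKM in OGD/R, 213, 236 and 247 FPKM in OGD, and 80.8, 92.9 and 113 FPKM in control libraries. Its groups were also separate, but here OGD/R was the lowest. MT1X stood at 39.9, 37.8 and 37.0 FPKM in OGD/R, 84.2, 81.4 and 82.0 FPKM in OGD, and 30.2, 22.3 and 49.1 FPKM in control libraries. All OGD libraries exceeded all others, while the control libraries spread on both sides of the OGD/R libraries.

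**Figure D1:**
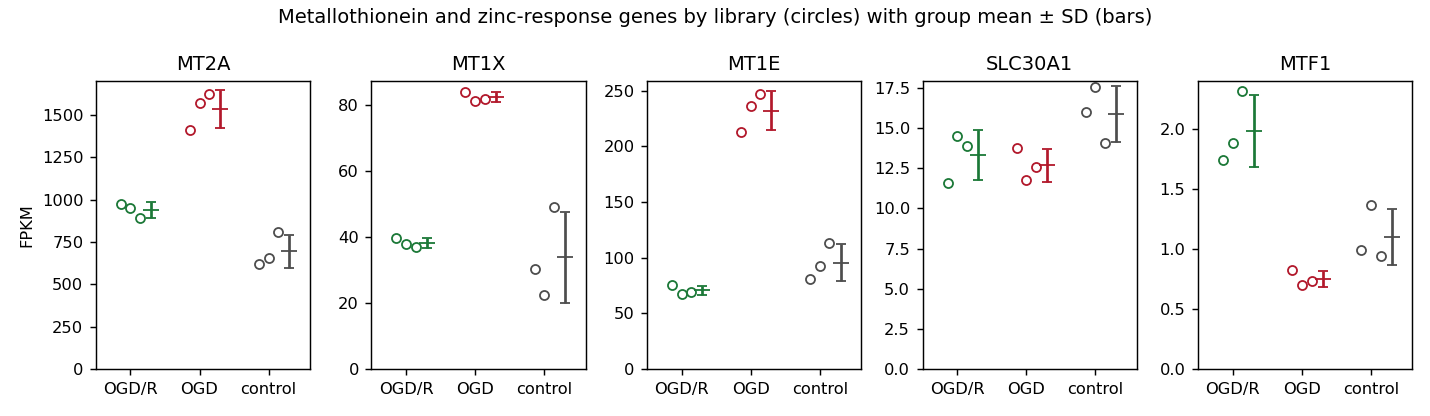
FPKM (linear axis, a scale of its own for each gene) of the 5 genes in OGD/R, OGD and control libraries. Circles are libraries and bars are the mean ± SD (n = 3). The 3 OGD libraries lie above all others for MT2A, MT1X and MT1E, and below all others for MTF1.

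SLC30A1, the zinc exporter gene, had 11.6, 14.5 and 13.9 FPKM in OGD/R, 13.8, 11.7 and 12.6 FPKM in OGD, and 16.0, 17.6 and 14.1 FPKM in control libraries. All OGD libraries were below all control libraries, and OGD/R overlapped both. MTF1, the zinc sensor, had 1.74, 1.89 and 2.32 FPKM in OGD/R, 0.825, 0.696 and 0.733 FPKM in OGD, and 0.989, 1.37 and 0.938 FPKM in control libraries. OGD/R was highest and OGD lowest, without overlap. On this per-length scale the order of levels was the same in every group, MT2A, MT1E, MT1X, SLC30A1 and MTF1, and no neighbouring pair overlapped within a group. MTF1 was near the limit of 1 FPKM, where the log2(FPKM + 1) scale understates a change.

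The first comparison, OGD against control, asked what 4 h of deprivation changed. The 3 metallothioneins rose together by more than 1 log2 unit, each with all OGD libraries above all control libraries. SLC30A1 was lower in OGD by a small margin that depended on the scaling. MTF1 did not pass the test. Thus 3 of the 5 genes were called higher and 1 was called lower, where 11.3% of all genes tested were higher and 46.7% were lower. At an added limit of 1 log2 unit, the 3 metallothioneins were higher and 0 of the 5 genes lower, against 1.56% and 4.63% of all genes.

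MT2A averaged 1536 ± 111 FPKM in OGD and 694 ± 98.7 FPKM in control libraries (SD, n = 3 each), a log2 fold change of 1.15 with a standard error of 0.12 (limma, adjusted p = 1.78e-05). For MT1E the means were 232 FPKM in OGD and 95.6 FPKM in control, a log2 fold change of 1.28 ± 0.12 (SE, adjusted p = 7.55e-06). MT1X averaged 82.5 FPKM in OGD and 33.9 FPKM in control, a log2 fold change of 1.33 ± 0.20 (SE, adjusted p = 0.00021). Among the 10818 genes tested, 70 had a larger log2 fold change than MT1X, 81 than MT1E and 107 than MT2A. In these bulk libraries a higher level in every cell and a larger share of cells with the transcript cannot be told apart.

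The 3 rises were called under all 21 alternative settings. Their smallest log2 fold changes were 0.59 for MT2A, under quantile normalization, and 0.97 for MT1X and 1.07 for MT1E, after a trend with transcript length was removed. Metallothionein messages are short, and short transcripts as a class were higher in OGD. In the shortest decile of genes (217 to 1035 bases), which holds all 3, the median log2 fold change was 0.19 and 37.2% of genes were called higher. The 3 metallothioneins stood above the 90th percentile of that decile.

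**Figure D2:**
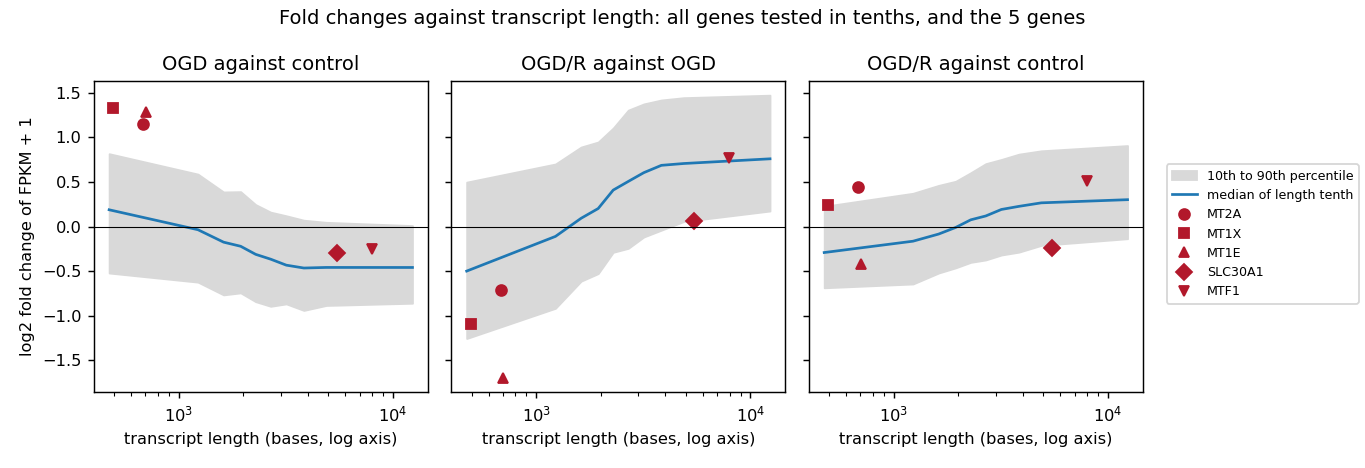
Log2 fold change of FPKM + 1 against transcript length in bases (log axis) for the 3 comparisons. The line is the median and the band the 10th to 90th percentile of all genes tested in deciles of length, and symbols are the 5 genes. The median of the shortest decile is 0.19 in OGD against control, -0.50 in OGD/R against OGD and -0.29 in OGD/R against control.

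SLC30A1 averaged 12.7 FPKM in OGD and 15.9 FPKM in control, a log2 fold change of -0.30 ± 0.12 (SE, adjusted p = 0.0476), next to the median of all genes at -0.31. The sign turned under median-of-ratios scaling (0.058), quantile normalization (0.033) and removal of the length trend (0.16), none of them called. The call was also lost in 9 further settings, among them the fits without OGD replicate 2 (-0.25, adjusted p = 0.163), OGD replicate 3 (-0.29, adjusted p = 0.112), control replicate 1 (-0.29, adjusted p = 0.0882), control replicate 2 (-0.23, adjusted p = 0.143) or OGD/R replicate 3 (-0.30, adjusted p = 0.0643). MTF1 averaged 0.751 FPKM in OGD and 1.10 FPKM in control. Its log2 fold change of -0.26 had a 95% interval of -0.54 to 0.03 and an adjusted p of 0.116, and its sign turned under quantile normalization (0.031) and removal of the length trend (0.19).

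OGD/R against OGD asked what differed after 16 h under oxygen in normal medium, following the same deprivation. The metallothioneins fell, MT1E most and MT2A least, while MTF1 was higher in OGD/R. SLC30A1 did not pass the test. Of the 5 genes, 3 were called lower and 1 higher, where 17.4% of all genes tested were lower and 53.3% were higher. At 1 log2 unit or more, MT1E and MT1X were lower and 0 of the 5 higher, against 3.52% and 17.0% of all genes. The OGD libraries enter this comparison and the preceding one, so the directions of the 2 are not independent.

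MT1E fell to a mean of 70.6 FPKM in OGD/R, against 232 FPKM in OGD, a log2 fold change of -1.70 ± 0.12 (SE, limma, adjusted p = 2.52e-07). MT1X fell to 38.3 FPKM in OGD/R, against 82.5 FPKM in OGD, a log2 fold change of -1.09 ± 0.20 (SE, adjusted p = 0.000341). Both falls were called under all 21 alternatives, although that of MT1X shrank to -0.41 (adjusted p = 0.0227) once the length trend was removed. MT2A averaged 938.5 ± 45.2 FPKM in OGD/R and 1536 ± 111 FPKM in OGD (SD, n = 3 each), a log2 fold change of -0.71 ± 0.12 (SE, adjusted p = 0.000172). This fall was larger under median-of-ratios scaling (-1.20), was not called after the length trend was removed (-0.20, adjusted p = 0.0530), and turned in sign under quantile normalization (0.18, adjusted p = 0.125). In the shortest decile of genes the median was -0.50, and 60.0% were called lower. MT2A and MT1X lay within the 10th to 90th percentile of that decile (-1.26 to 0.50), and MT1E lay below it.

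MTF1 averaged 1.98 FPKM in OGD/R and 0.751 FPKM in OGD, a log2 fold change of 0.76 ± 0.13 (SE, adjusted p = 0.000244). Its transcript is 7972 bases long, in the longest decile, whose median was 0.76 and of which 82.9% were called higher. With the length trend removed, the difference for MTF1 was -0.034 (adjusted p = 0.823), and with a pseudocount of 0.1 it was 1.28. SLC30A1 averaged 13.3 FPKM in OGD/R and 12.7 FPKM in OGD, a log2 fold change of 0.06 with a 95% interval of -0.20 to 0.32 (adjusted p = 0.662). Set against the other scalings it was lower in OGD/R, at -0.40 under median-of-ratios (adjusted p = 0.00300), -0.38 under quantile normalization (adjusted p = 0.00478) and -0.72 without the length trend (adjusted p = 3.26e-05). The direction for SLC30A1 and MTF1 therefore depended on the scaling, while that of MT1E and MT1X did not under the settings run.

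OGD/R against control asked what differed from control cells after reoxygenation, and here the 3 metallothioneins went different ways. MT2A stayed above control, MT1E was below it, and MT1X overlapped it. MTF1 was higher in OGD/R and SLC30A1 did not pass the test. In all, 2 of the 5 genes were called higher and 1 lower, where 24.7% of all genes tested were higher and 16.5% were lower. None of the 5 reached 1 log2 unit, which 3.04% of all genes did upward and 0.444% downward. The OGD/R and control libraries also enter the comparisons above, and the 3 sets of values are not independent.

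MT2A averaged 938.5 FPKM in OGD/R and 694 FPKM in control, a log2 fold change of 0.44 ± 0.12 (SE, limma, adjusted p = 0.0101). It was not called under median-of-ratios scaling (0.34, adjusted p = 0.117) and was larger without the length trend (0.72) and under quantile normalization (0.77). MT1E averaged 70.6 FPKM in OGD/R and 95.6 FPKM in control, a log2 fold change of -0.42 ± 0.12 (SE, adjusted p = 0.0123). It was not called without the length trend (-0.14, adjusted p = 0.215). In the shortest decile of genes the median was -0.29, and 42.2% were called lower. MT1E lay within the 10th to 90th percentile of that decile (-0.69 to 0.23), and MT2A lay above it. MT1X averaged 38.3 FPKM in OGD/R and 33.9 FPKM in control, a log2 fold change of 0.24 with a 95% interval of -0.19 to 0.67 (adjusted p = 0.347). Single control libraries decided that value, which was 0.54 without control replicate 3 (adjusted p = 0.00383) and -0.011 without control replicate 2 (adjusted p = 0.962). It was also called without the length trend (0.57, adjusted p = 0.00687).

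MTF1 averaged 1.98 FPKM in OGD/R and 1.10 FPKM in control, a log2 fold change of 0.51 ± 0.13 (SE, adjusted p = 0.00912). The call was lost without OGD/R replicate 3 (0.43, adjusted p = 0.0520) and without the length trend (0.15, adjusted p = 0.316). In the longest decile of genes, which holds MTF1, the median was 0.30 and 41.3% were called higher. SLC30A1 averaged 13.3 FPKM in OGD/R and 15.9 FPKM in control, a log2 fold change of -0.24 with a 95% interval of -0.50 to 0.02 (adjusted p = 0.128). It was called lower under median-of-ratios scaling (-0.34, adjusted p = 0.0130), quantile normalization (-0.35, adjusted p = 0.0125) and without the length trend (-0.56, adjusted p = 0.000505).

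**Figure D3:**
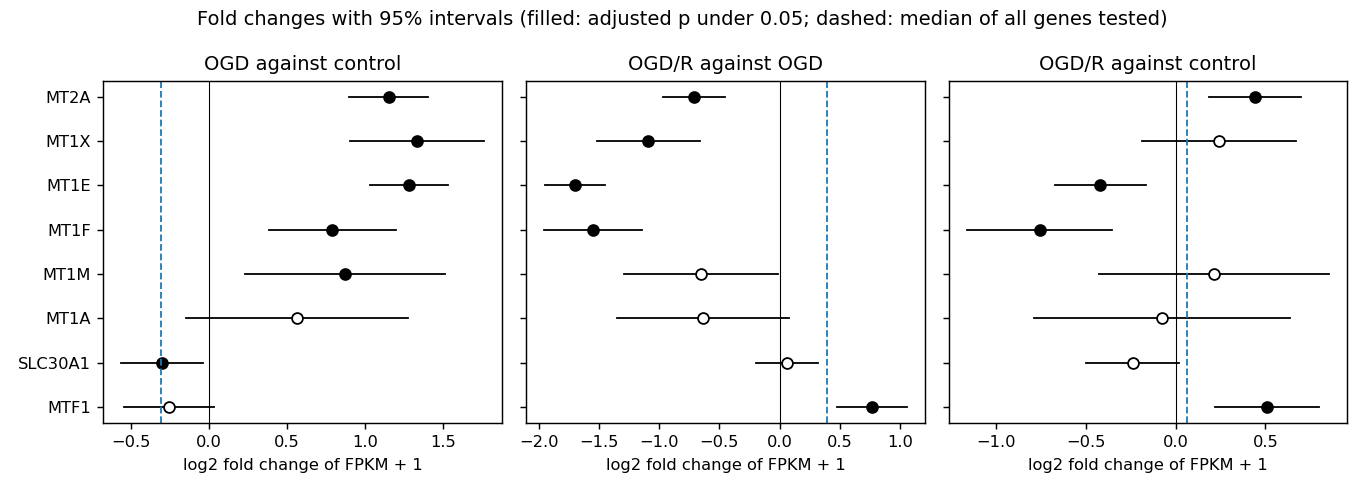
Log2 fold change of FPKM + 1 with 95% intervals for the 6 metallothioneins tested, SLC30A1 and MTF1 in the 3 comparisons. Filled circles have an adjusted p under 0.05, and the dashed line is the median of all genes tested (-0.31, 0.39 and 0.07). MT2A, MT1X and MT1E lie right of 1 in OGD against control, and MT1E lies at -1.70 in OGD/R against OGD.

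The unequal changes of the metallothioneins were examined as ratios within a library, which do not depend on a single scale factor per library. MT2A was 13.0, 14 and 12.9 times MT1E in OGD/R, 6.63, 6.65 and 6.58 times in OGD, and 7.68, 7.06 and 7.13 times in control libraries. The ratio was close to constant among the OGD libraries, and the 3 groups did not overlap. On the log2 scale it was 0.99 higher in OGD/R than in OGD and 0.86 higher in OGD/R than in control, and the difference between OGD and control was -0.13. Each of these had an exact permutation p of 0.1, the smallest that 3 against 3 libraries allow (2-sided, 0.15 after Benjamini-Hochberg adjustment over 9 tests), so none could pass a threshold of 0.05. Quantile normalization, which is not a single factor, widened the 3 differences to 1.69, 1.11 and -0.58, and removal of the length trend left them at 1.01, 0.87 and -0.14.

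MT1X relative to MT1E was 0.530, 0.559 and 0.537 in OGD/R, 0.396, 0.344 and 0.332 in OGD, and 0.374, 0.240 and 0.433 in control libraries. OGD/R lay above both other groups, by 0.61 log2 units over OGD and 0.66 over control (exact permutation p = 0.1 each), and OGD differed from control by 0.05 with overlapping libraries (exact permutation p = 0.9). The margin over control was 0.42 without control replicate 2, and that over OGD was 0.41 under quantile normalization. MT2A relative to MT1X was 24.5, 25.1 and 24.0 in OGD/R, 16.8, 19.3 and 19.8 in OGD, and 20.6, 29.4 and 16.4 in control libraries. OGD/R lay above OGD by 0.38 log2 units (exact permutation p = 0.1), a difference of 1.28 under quantile normalization and 0.21 without the length trend. Its libraries overlapped between OGD/R and control (0.20, exact permutation p = 0.5; 0.42 without control replicate 2 and 0.015 without control replicate 3) and between OGD and control (-0.18, exact permutation p = 0.6). Relative to MT2A and to MT1X, MT1E was thus lower in OGD/R than in OGD or control. Control replicate 2 had the lowest MT1X relative to both MT2A and MT1E.

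**Figure D4:**
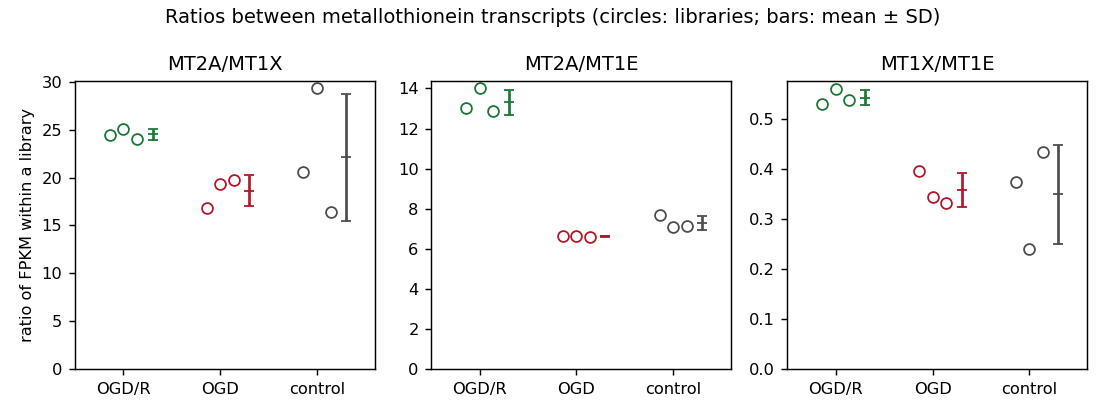
Ratio of FPKM between pairs of metallothioneins within each library (linear axes from 0) in OGD/R, OGD and control. Circles are libraries and bars are the mean ± SD (n = 3). MT2A over MT1E lies between 12.9 and 14 in OGD/R, between 6.58 and 6.65 in OGD and between 7.06 and 7.68 in control.

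The sum of the metallothioneins listed was 1056 ± 49.8 FPKM in OGD/R, 1875 ± 128 FPKM in OGD and 837 ± 130 FPKM in control (SD, n = 3 each). This was 0.237% of all FPKM in OGD/R, 0.314% in OGD and 0.169% in control libraries. MT2A made up 88.9 ± 0.436% of the sum in OGD/R, 81.9 ± 0.346% in OGD and 83.0 ± 1.25% in control. The share of MT1E was 6.69 ± 0.278% in OGD/R, 12.4 ± 0.1% in OGD and 11.4 ± 0.557% in control.

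Of 12 metallothionein genes on the family list, 8 were listed in the table and 6 passed the filter. OGD was higher than control for 5 of the 6 and lower for 0, where 11.3% of all genes tested were higher and 46.7% lower. Their median log2 fold change was 1.01 against -0.31 for all genes. Without the length trend 4 of the 6 were higher (median 0.82 against -0.02), where 21.0% of all genes were higher. MT1F, another copy in the same cluster, had 6.59, 5.10 and 6.28 FPKM in OGD/R, 18.9, 19.6 and 19.7 FPKM in OGD, and 11.6, 7.32 and 14.6 FPKM in control libraries. As for MT1E, its OGD libraries were highest and its OGD/R libraries lowest, without overlap. Its log2 fold changes were 0.79 in OGD against control (adjusted p = 0.00358), -1.55 in OGD/R against OGD (adjusted p = 1.42e-05) and -0.76 in OGD/R against control (adjusted p = 0.00672), and all 3 calls were kept under each other scaling.

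MT1M, a weakly present copy, had 2.27, 1.44 and 1.97 FPKM in OGD/R, 2.77, 3.65 and 4.27 FPKM in OGD, and 3.28, 0.487 and 1.38 FPKM in control libraries. Its rise in OGD against control (0.87, adjusted p = 0.0236) came with overlapping libraries and was not called without the length trend (0.72, adjusted p = 0.0632). MT1A did not pass the test in any comparison and was listed at 0 in 1 OGD/R and 2 control libraries. MT1G was listed at 0 in all OGD/R and control libraries, with 0.511, 0.148 and 0.198 FPKM in OGD, and MT3 was listed at 0 except in control replicate 3 with 0.129 FPKM. MT1B, MT1H, MT1HL1 and MT4 were not among the genes listed, so they have no expression values here. Between OGD/R and OGD, 4 of the 6 were lower and 0 higher (median -0.90 against 0.39), where 17.4% of all genes were lower. In the shortest decile of genes, which holds all 6, 60.0% were called lower. Without the length trend 3 of the 6 were lower (median -0.33 against -0.02), where 30.7% of all genes were lower. Between OGD/R and control 1 was higher and 2 lower (median 0.07 against 0.07), where 24.7% of all genes were higher and 16.5% lower. Without the length trend 2 were higher and 1 lower, where 20.1% and 23.2% of all genes were.

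Other genes that move metals across membranes gave a mixed picture. The SLC30A zinc exporters, of which 6 of 10 were tested, had 4 lower and 0 higher in OGD against control, where 46.7% of all genes were lower, with a median of -0.35 beside -0.31 for all genes. SLC30A6 (-0.48, adjusted p = 0.0276), SLC30A5 (-0.40, adjusted p = 0.00614) and SLC30A9 (-0.39, adjusted p = 0.00889) were called with SLC30A1, but 0 of the 6 were called in either direction under median-of-ratios scaling, under quantile normalization or without the length trend. Of all genes, 20.0% to 27.2% were higher and 22.3% to 22.4% lower under those settings. Between OGD/R and OGD, 2 were higher, SLC30A7 (0.58, adjusted p = 0.00396) and SLC30A4 (0.49, adjusted p = 0.00660), and 0 were lower, where 53.3% of all genes were higher. There too the direction hung on the scaling, since 0 were higher and 3 lower under median-of-ratios and quantile scaling, and 5 lower without the length trend. In that order, 35.2%, 31.3% and 30.7% of all genes were lower, and 31.6%, 31.4% and 28.7% higher. Relative to control, SLC30A9 (-0.44, adjusted p = 0.00672) and SLC30A5 (-0.31, adjusted p = 0.0297) were lower in OGD/R, where 16.5% of all genes were lower, with a median of -0.20 against 0.07. These 2 became 3, 3 and 4 lower under median-of-ratios scaling, under quantile normalization and without the length trend, where 23.7%, 23.1% and 23.2% of all genes were lower.

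Among the SLC39A zinc importers (10 of 14 tested), SLC39A14 moved most in OGD. SLC39A14 encodes ZIP14, which carries zinc, manganese and iron into cells. It had 25.4, 28.5 and 27.5 FPKM in OGD/R, 43.3, 37.5 and 37.6 FPKM in OGD, and 19.8, 16.0 and 18.0 FPKM in control libraries, with the groups separate and in the same order as for MT2A. Its log2 fold change was 1.10 in OGD against control (adjusted p = 1.02e-05) and 0.58 in OGD/R against control (adjusted p = 0.00101). SLC39A9, a Golgi zinc carrier, was lower in OGD than in control (-0.99, adjusted p = 0.000841) and higher in OGD/R than in OGD (1.0, adjusted p = 0.000379). SLC39A1 was lower in OGD than in control (-0.44, adjusted p = 0.0055), a call that was lost under median-of-ratios scaling (-0.07) and without the length trend (-0.14). SLC39A7, which releases zinc from the endoplasmic reticulum, was higher in OGD/R than in OGD (0.85, adjusted p = 8.14e-05) and than in control (0.70, adjusted p = 0.00124). In full, 1 importer was higher and 2 lower in OGD against control (median -0.23 against -0.31), 5 higher and 1 lower in OGD/R against OGD (median 0.32 against 0.39), and 2 higher and 1 lower in OGD/R against control. Over all genes the shares higher and lower were 11.3% and 46.7%, 53.3% and 17.4%, and 24.7% and 16.5% in these comparisons, so the 5 of 10 importers higher in OGD/R than in OGD are close to the share of all genes. The 5 and 1 became 2 and 4 under median-of-ratios scaling, 4 and 4 under quantile normalization and 2 and 5 without the length trend. Of all genes, 31.6%, 31.4% and 28.7% were higher under these settings, and 35.2%, 31.3% and 30.7% lower. Also called were SLC39A13, higher in OGD/R than in OGD (0.58, adjusted p = 0.00476, lost under median-of-ratios scaling and without the length trend), and SLC39A3, lower in OGD/R than in control (-0.31, adjusted p = 0.0236, lost without the length trend).

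Copper handling genes (14 of 15 tested) had 6 higher and 1 lower in OGD against control, with a median of 0.18 against -0.31, where 11.3% of all genes were higher and 46.7% lower. Under each other scaling 9 were higher, where 20.0% to 27.2% of all genes were. STEAP3, a metalloreductase of iron and copper, averaged 5.64 FPKM in OGD/R, 7.48 FPKM in OGD and 2.27 FPKM in control. It was higher in OGD than in control (1.38, adjusted p = 1.11e-05) and higher in OGD/R than in control (1.03, adjusted p = 0.000124). SLC31A2, a copper carrier of internal membranes, averaged 1.49 FPKM in OGD/R, 8.05 FPKM in OGD and 3.52 FPKM in control, and COX17, which delivers copper to cytochrome c oxidase, averaged 61.1 FPKM in OGD/R, 139 FPKM in OGD and 83.5 FPKM in control. The SLC31A2 libraries of OGD (8.03, 5.40 and 10.7 FPKM) overlapped those of control (6.50, 2.80 and 1.26 FPKM). Both genes were called higher in OGD than in control (1.13, adjusted p = 0.0151, and 0.79, adjusted p = 0.00455) and lower in OGD/R than in OGD (-1.83, adjusted p = 0.000494, and -1.19, adjusted p = 0.000151). After reoxygenation 9 copper genes were lower than in OGD, SCO2 among them (-0.97, adjusted p = 0.000117), and 0 higher (median -0.42 against 0.39), where 17.4% of all genes were lower. These counts became 11 (of 13 tested), 10 and 10 lower with 0 higher under median-of-ratios scaling, under quantile normalization and without the length trend, where 35.2%, 31.3% and 30.7% of all genes were lower. Compared with control, 5 were lower in OGD/R and 2 higher (median -0.29 against 0.07), among them COX11 (-0.57, adjusted p = 0.000458) and SCO2 (-0.48, adjusted p = 0.0241, not called without the length trend), both assembly factors of cytochrome c oxidase. Of all genes, 16.5% were lower and 24.7% higher there. Without the length trend 2 copper genes were lower and 1 higher, where 23.2% and 20.1% of all genes were.

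Heavy-metal and oxidant stress genes (13 of 15 tested) did not move as 1 group, with 5 higher and 6 lower in OGD against control and a median of -0.16 against -0.31. The 6 of 13 lower are close to the 46.7% of all genes that were lower, and 11.3% were higher. Called higher in OGD, as the metallothioneins were, were FTL, FTH1, NQO1, SLC7A11 and HMOX1. Called lower were HSPA1A, HSPA1B, GCLM, PGF, DNAJB1 and GCLC. The inducible heat shock genes HSPA1A and HSPA1B, which metals can induce, thus went against the metallothioneins. HSPA1A averaged 19.3 FPKM in OGD/R, 6.98 FPKM in OGD and 16.3 FPKM in control. It was lower in OGD than in control (-1.10, adjusted p = 4.16e-05) and higher in OGD/R than in OGD (1.35, adjusted p = 2.31e-06), and HSPA1B, a near-identical copy with which reads may be shared, did likewise (-0.92, adjusted p = 0.00026, and 1.18, adjusted p = 1.34e-05). FTL, the ferritin light chain that stores iron, averaged 1011 FPKM in OGD/R, 3431 FPKM in OGD and 1650.0 FPKM in control. Its log2 fold change of 1.06 in OGD against control (adjusted p = 3.42e-05) was not called under quantile normalization (0.33, adjusted p = 0.0624), and its fall in OGD/R against OGD was -1.77 (adjusted p = 2.42e-07). Below control in OGD/R, FTL (-0.71, adjusted p = 0.000697), SLC7A11, the cystine importer (-0.68, adjusted p = 0.00121), and NQO1, a quinone reductase (-0.63, adjusted p = 0.000216), were among 4 genes called lower, with 0 higher, where 16.5% of all genes were lower. Without the length trend 7 were lower, where 23.2% of all genes were. Between OGD/R and OGD, 5 of the list were higher and 5 lower, where 53.3% and 17.4% of all genes were, and 3 were higher and 7 lower both under median-of-ratios scaling and without the length trend. Under these 2 settings, 31.6% and 28.7% of all genes were higher, and 35.2% and 30.7% lower. SRXN1, an oxidant-response gene, was listed at 0 in control replicate 2, at 9.60 FPKM or more in all other libraries, and was not called in any comparison.

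**Figure D5:**
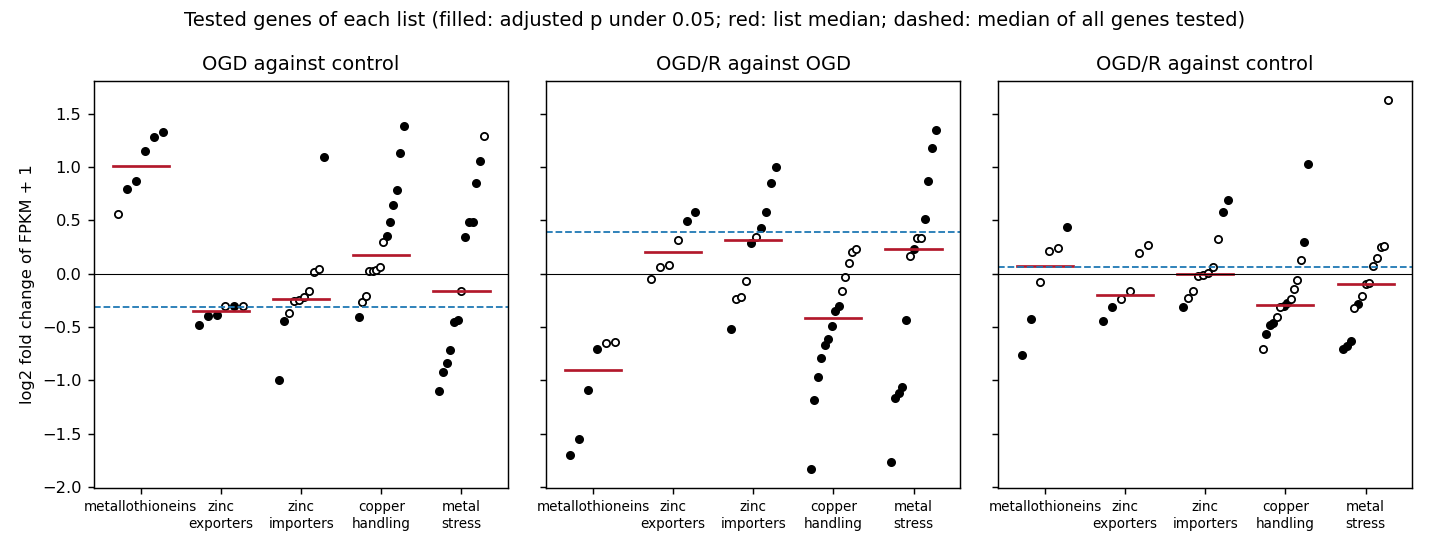
Log2 fold change of FPKM + 1 for each tested gene of 5 metal-handling lists in the 3 comparisons. Circles are genes, filled where the adjusted p is under 0.05, red bars are list medians and dashed lines are medians of all genes tested. The metallothionein median is 1.01 in OGD against control, -0.90 in OGD/R against OGD and 0.07 in OGD/R against control.

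The genes with the profile closest to each of the 5 were found as the root mean square difference of log2(FPKM + 1) over the 9 libraries, after each gene's own mean was subtracted. For MT2A they were UFSP1 (0.12), HAS2 (0.13), a hyaluronan synthase, and ERICH2 (0.15), all of them at or below 2.16 FPKM on average in each group. MT1X was closest to PFDN2 (0.13), a prefoldin subunit, STEAP1 (0.15), a membrane protein, and ADAMTS12 (0.16). MT1E was closest to the ribosomal protein genes RPL12 (0.09) and RPL10A (0.11) and to HSD17B14 (0.12). SLC30A1 was closest to RNF6, VEZT and UBA2 (0.06 each), and MTF1 to ANKS1A, TRPC4AP and NUAK1 (0.07 each). UFSP1, HAS2 and ERICH2 averaged over 1 FPKM in OGD alone, the group in which MT2A was highest. At such levels the log2(FPKM + 1) scale understates a change, so their likeness to MT2A holds on that scale only. UFSP1 averaged 1.45 FPKM in OGD and 0.129 FPKM in control, a larger relative change than that of MT2A (1536 and 694 FPKM). Among the 10817 genes ranked by likeness to MT2A, MT1X stood at rank 99 (0.25) and MT1E at rank 1318 (0.44). In likeness to MT1X, MT2A stood at rank 34 and MT1E at rank 249 (0.37), and in likeness to MT1E, MT1X stood at rank 290 and MT2A at rank 525. SLC30A1 and MTF1 stood at ranks from 3702 to 7053 for the 3 metallothioneins. These likenesses come from the same 9 libraries, are a description, and carry no test.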

How the data were processed

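RNA-seq of 9 hCMEC/D3 libraries was analysed, 3 per group, with groups and replicate numbers from the sample titles. The authors deposited 1 table of FPKM values per gene and library. The build was GRCh38, per the submitters' processing notes. No aligner, quantification tool, annotation or strand setting is given in the sources used here. All 9 value columns matched a sample. The low values gave no whole reads, so depth is unknown and no counting interval was computed.

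The filter kept genes that reached 1 FPKM in 3 or more libraries, and they were tested as log2(FPKM + 1), a scale that understates the change of low genes, with limma 3.58.1 in R 4.3.3. All 9 libraries entered 1 fit of 3 groups (eBayes with an intensity trend, 6 residual and 6.33 prior degrees of freedom), with no further scaling. P-values are 2-sided and adjusted by Benjamini-Hochberg over all 10818 genes of a comparison, with a threshold of 0.05, and every adjusted p of a gene comes from limma. Ratios between metallothioneins were tested by exact permutation. The fit was tested on simulated data first. Plots used matplotlib 3.10.9 under Python 3.11.15.

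Alternatives were pseudocounts of 0.1 and 0.5, no filter, a filter of 5 FPKM, median-of-ratios scaling, quantile normalization, a robust prior, fits of the 2 groups compared alone, the replicate number as a block, each library left out, and removal of a trend with transcript length from each library. The last was a spline with 4 degrees of freedom, on the 99.7% of genes tested that have a length. Chosen after seeing the data, it was also run with the block and without control replicate 3. The ratios were also taken under the 3 other scalings, a choice made after seeing the data.

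The 5 genes, the gene lists and the tests were chosen with earlier results of these data known. From the lists, all metallothioneins were named, and in each other list the 3 called genes with the largest absolute fold change per comparison. Where a gene is named in only some comparisons, that rule did not reach it in the others. The metal stress genes called in OGD against control were all named besides.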

Additional observations from a re-analysis of the deposited data

How the results depend on the processing

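Over 21 alternatives (20 for MTF1, which a filter of 5 FPKM removes), the numbers of genes and of members called stayed within 1.5 times those reported in each comparison. The directions of the calls did not. Of the genes called in OGD against control, 1218 were higher and 5054 lower as reported, against 2935 and 2402 under median-of-ratios scaling, 2166 and 2427 under quantile normalization, and 2265 and 2404 without the length trend. In OGD/R against OGD, 5770 were higher and 1878 lower as reported, against 3400 and 3794, 3399 and 3386, and 3102 and 3313 under those 3 settings. In OGD/R against control, 2673 were higher and 1787 lower, against 2323 and 2556, 2394 and 2504, and 2170 and 2498. These scalings set the median of all genes near 0, and the cause of the shift was not tested.

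Sign changes in OGD against control were those of SLC30A1 under median-of-ratios scaling (0.058), quantile normalization (0.033) and length removal alone (0.16), with the block (0.16) or without control replicate 3 (0.15), and of MTF1 under quantile normalization (0.031) and the 3 length settings (0.19 in each). In OGD/R against OGD they were those of MT2A under quantile normalization (0.18), SLC30A1 under median-of-ratios scaling (-0.40), quantile normalization (-0.38) and the 3 length settings (-0.72 in each), and MTF1 under the 3 length settings (-0.034, -0.034 and -0.035). In OGD/R against control MT1X changed sign without control replicate 2 (-0.011), and single libraries left out gave a range of -0.011 to 0.54. The cause was not tested. With single libraries left out, the log2 ratio of MT1X to MT1E in OGD against control ranged from -0.19 to 0.22, and turned without OGD replicate 1 (-0.024) or control replicate 2 (-0.19), and also after length removal (-0.093). That of MT2A to MT1X ranged from -0.37 to 0.036, and turned without control replicate 2 (0.036). In OGD/R against control these ratios ranged from 0.42 to 0.83 and from 0.015 to 0.42.

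Same-numbered libraries did not pair. Their deviations correlated above 0.1 in 1 of 9 pairs, and 0 libraries correlated best with their own number in both other groups. With the replicate number as a block, 5956 genes and 3 of the 5 described were called in OGD against control, 7452 and 4 in OGD/R against OGD, and 4128 and 3 in OGD/R against control. The block lost the call of SLC30A1 in OGD against control (-0.30, adjusted p = 0.0761) and changed no other call of the 5 genes. Depth being unknown, the precision of the low values of MTF1, MT1M and MT1A cannot be stated.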
